A study of Homo sapiens with 6 samples.

Results

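The 7 genes described here encode the enzymes and carriers that make lactate and move it across the cell membrane: the lactate dehydrogenase subunits LDHA and LDHB, the monocarboxylate transporters SLC16A1, SLC16A3, SLC16A7 and SLC16A8, and BSG, the protein that brings several of these transporters to the cell surface. They were taken by symbol from a table of 60835 loci, using rows that hold an annotated transcript, and all 7 were present and passed the filter on low counts that left 25025 loci for testing. RNA was sequenced from ARPE-19, an established human retinal pigment epithelium cell line of wild type genotype, after 72 h in high glucose medium (3 libraries) or in normal glucose medium (3 libraries). Neither the glucose concentrations nor the origin of replicate libraries (separate cultures or not) is stated in the labels. All p-values therefore describe the spread among these 6 libraries, which may be technical. ARPE-19 is a single line, and no other line was sequenced here.

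Lactate dehydrogenase converts pyruvate to lactate and back, regenerating NAD+ when pyruvate is reduced. It is a tetramer of LDHA and LDHB chains, and LDHA-rich forms are associated with lactate production while LDHB-rich forms are associated with lactate use. The retinal pigment epithelium lies between photoreceptors, which release much lactate, and the choroidal blood supply, and in the tissue it carries lactate through with SLC16A1 (MCT1) on the retinal side and SLC16A8 (MCT3) on the choroidal side. SLC16A3 (MCT4) is the carrier typical of glycolytic cells that export lactate, and SLC16A7 (MCT2) is a carrier of high affinity.

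SLC16A3 rose in high glucose, and it was the only one of the 7 genes called at an edgeR adjusted p under 0.05. LDHA was also higher in each high glucose library than in any normal glucose library, but it missed that threshold. LDHB, SLC16A1, SLC16A7 and BSG were not called, and their estimated log2 changes lay between -0.16 and 0.01. SLC16A8 was barely detected in either medium. Of all tested loci, 19.6% were called, 9.75% higher and 9.86% lower. Among the 13786 protein-coding ones of these loci, 25.5% passed, 13.1% higher and 12.4% lower, so that 1 call among 7 genes lies near the background. Groups without overlap were seen at 2 of the 7 genes, both with high glucose above. That pattern was seen in either direction at 42.3% of all tested loci and 49.5% of coding ones, and with high glucose above at 21.8% and 25.9%. Without normal glucose library 3, which stood apart from the others, both LDHA and SLC16A3 were called, and so were 28.7% of the loci tested in that fit. Without any 1 of the other 5 libraries, none of the 7 genes was called. Those fits called fewer loci in general, 1421 to 2846 of the 26273 to 26448 tested, against 4906 of 25025 with all 6 libraries.

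The promoters of the 2 genes whose groups did not overlap are given first, each from 250 bases before to 50 bases after the start site nearest the upstream end of the gene's locus (RefSeq, GRCh38.p14). The LDHA window is chr11:18394313-18394612 and the SLC16A3 window is chr17:82228185-82228484, both on the plus strand. Capitals mark matches on either strand to ACGTG or GCGTG, the cores of the element bound by hypoxia-inducible factors. CACGTG, the box bound by MYC and by the glucose-responsive MondoA and ChREBP proteins, holds ACGTG on both strands and is counted once per strand.
LDHA: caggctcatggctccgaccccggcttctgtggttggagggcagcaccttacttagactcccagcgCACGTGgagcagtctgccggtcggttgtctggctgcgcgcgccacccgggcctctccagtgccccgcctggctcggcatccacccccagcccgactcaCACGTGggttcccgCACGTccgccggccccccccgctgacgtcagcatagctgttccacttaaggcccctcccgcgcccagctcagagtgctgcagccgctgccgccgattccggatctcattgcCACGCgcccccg
SLC16A3: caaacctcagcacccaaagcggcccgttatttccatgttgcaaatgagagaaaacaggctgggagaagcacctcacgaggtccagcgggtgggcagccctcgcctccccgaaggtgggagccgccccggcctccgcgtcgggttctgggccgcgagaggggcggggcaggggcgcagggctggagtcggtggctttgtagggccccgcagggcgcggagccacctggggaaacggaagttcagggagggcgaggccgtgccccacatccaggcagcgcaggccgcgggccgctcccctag
The LDHA promoter held 5 matches to ACGTG and 1 to GCGTG, with 2 stretches of CACGTG among them. Of 35116 promoter windows of the same length, 21.4% held ACGTG, 36.5% held GCGTG, 7.26% held CACGTG, and 0.923% held at least 6 matches to the first pair. The SLC16A3 window held none of these letters. RefSeq lists 5 start sites for SLC16A3, and windows at the others held 2 matches to ACGTG (start site at position 82229042 of chromosome 17), 3 to GCGTG (82234899), 1 to GCGTG (82235774) and none (82232232). The LDHB window held 1 match to GCGTG. Windows at the start sites nearest the upstream ends of SLC16A7, SLC16A8 and BSG held none. One at a second BSG start site (position 572596 of chromosome 19) held 2 matches to ACGTG and 4 to GCGTG, with 1 stretch of CACGTG. BSG was not called. The window at the second LDHA start site (position 18396351 of chromosome 11) held 1 match to GCGTG and none to ACGTG. These matches describe letters in the windows and are not evidence of binding.

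Total counts per library ranged from 81616741 to 87748820, and 30253 to 31698 loci per library had a count. On the principal components of log2 CPM, the first (49.7% of variance) separated the groups, and the second (18% of variance) set normal glucose library 3 apart from the other 5. On the first component, normal glucose 3 lay at 49.9, between normal glucose 1 and 2 (88.4 and 105.8) and the high glucose libraries (-84.1 to -79.2). The biological coefficient of variation that edgeR estimated was 27.2% within high glucose and 41% within normal glucose. Of 14 markers of retinal pigment epithelium, 10 passed the filter, among them MITF, OTX2, BEST1, MERTK, PMEL, RLBP1 and SERPINF1, while RPE65, TYR and TTR had at most 16 counts in a library and TRPM1 was at 0. The summed level of the 14 was 2203 to 2333 CPM in high glucose and 603 to 1145 CPM in normal glucose, and most of it came from KRT8 and KRT18, keratins of simple epithelia. KRT8 and KRT18 were called higher, while BEST1, a chloride channel, and MERTK, a receptor for phagocytosis, fell by 2.20 and 1.23 on the log2 scale (edgeR adjusted p = 0.0113 and 0.0191). KRT18 was called in all 6 omissions of a library, BEST1 in 4, MERTK in 3 and KRT8 in 2. Marker lists of other cells had summed levels of 239.8 to 244.1 CPM against 181.8 to 294 CPM for 9 fibroblast genes, 3.29 to 4.65 against 10.6 to 17.2 CPM for 5 endothelial genes, and 13.9 to 21.2 against 7.30 to 8.78 CPM for 5 photoreceptor genes (high glucose against normal glucose in each pair). Leukocyte markers had 427 to 544 CPM in high glucose and 343 to 474 CPM in normal glucose, nearly all from the locus of CD68, which also holds SENP3, while PTPRC was near 0 and AIF1 was at 0. The part of these differences in the results below was not tested. In bulk RNA, fewer cells of a kind and less RNA per cell cannot be told apart.

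LDHA (chr11:18394560-18408218, plus strand) encodes the muscle-type subunit, the form induced by hypoxia and MYC in many cells. Its counts scaled to TMM library size were 717, 685 and 724 CPM in high glucose libraries 1, 2 and 3, against 241, 258 and 571 CPM in normal glucose libraries 1, 2 and 3. The high glucose libraries lay close together, and normal glucose 3 lay between them and the other normal glucose libraries, at 80.5% of the high glucose mean where normal glucose 1 and 2 lay at 34% and 36.4%. The means were 708 ± 20.8 CPM in high glucose and 357 ± 185 CPM in normal glucose (SD, n = 3 each), a log2 change of 0.99 with a 95% interval of 0.23 to 1.75 (SE 0.323; edgeR adjusted p = 0.0734). Without normal glucose 3 the change was 1.51 (edgeR adjusted p = 2.00e-04). Without any 1 of the other 5 libraries it was 0.77 to 1.02, with edgeR adjusted p of 0.161 to 0.187. DESeq2, which called 28.2% of all tested loci, gave an adjusted p of 0.0184. The LDHA locus has near-identical copies in the genome, and reads may be split between them. Of 9 LDH pseudogenes 5 were tested. The locus that merges LDHAP4 with CLCN3P1 was called higher at 8.83 ± 1.42 CPM in high glucose against 4.20 ± 1.42 CPM in normal glucose (SD, n = 3 each; edgeR adjusted p = 0.0347). It spans chr9:14921013-15146401 and holds 5 annotated transcripts, so its counts cannot be assigned to LDHAP4. This merged locus was not called without any 1 library other than normal glucose 3.

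LDHB (chr12:21536107-21657971, minus strand) encodes the heart-type subunit. The table merges it with GYS2, the liver glycogen synthase, and AC010197 in 1 locus, so its counts cannot be divided among the 3 names. The locus had 316, 332 and 295 CPM in the high glucose libraries and 318, 291 and 425 CPM in the normal glucose libraries. The groups overlapped, and normal glucose 3 was the highest library. The log2 change was -0.13, with a 95% interval of -0.50 to 0.23 (edgeR adjusted p = 0.596), and 0.05 without normal glucose 3. The far end of this locus overlaps SPX, which encodes the peptide spexin on the opposite strand, by 5143 bases. SPX was at 2.37, 2.64 and 2.15 CPM in high glucose and 143, 62.6 and 23.7 CPM in normal glucose (log2 change -5.00; edgeR adjusted p = 0.00512). SPX was called lower in all 6 omissions of a library. No source used here states how reads in that overlap were assigned.

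The RNA ratio of LDHA to LDHB was higher in high glucose, and protein was not measured. On the FPKM scale, which divides by length, LDHA was 2.86, 2.60 and 3.09 times LDHB in high glucose libraries 1, 2 and 3, against 0.956, 1.12 and 1.69 times in normal glucose. The log2 ratio averaged 1.51 ± 0.124 in high glucose and 0.29 ± 0.426 in normal glucose (SD, n = 3 each), and the groups did not overlap. The difference of 1.22 ranged from 1.05 to 1.46 when 1 library at a time was left out. LDHB's FPKM is that of the merged locus.

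**Figure D1:**
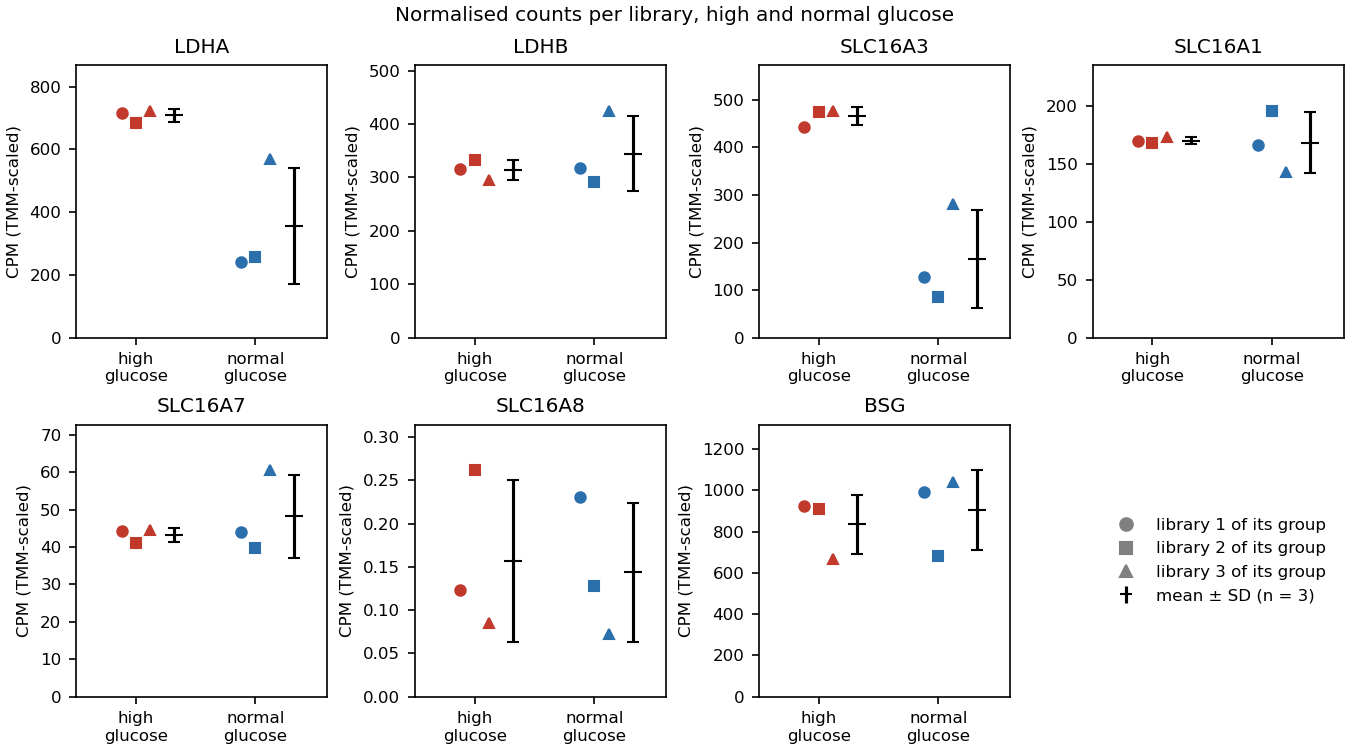
CPM scaled to TMM library size (y axis, linear from 0, a scale for each gene) for each library in high glucose (red, left) and normal glucose (blue, right), with mean and SD in black. LDHA and SLC16A3 have all 3 high glucose libraries above the normal glucose libraries, with normal glucose 3 (triangle) nearest to them, while the groups of the other 5 genes overlap.

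SLC16A3 (chr17:82228397-82239498, plus strand), the lactate exporter MCT4, had 444, 475 and 478 CPM in high glucose libraries 1, 2 and 3, against 128, 84.6 and 281 CPM in normal glucose libraries 1, 2 and 3. As for LDHA, the high glucose libraries lay close together and normal glucose 3 came nearest to them, at 60.4% of their mean. SLC16A3 averaged 466 ± 19 CPM in high glucose and 165 ± 103 CPM in normal glucose (SD, n = 3 each). This is a 2.83-fold difference with a 95% interval of 1.46 to 5.46 (log2 change 1.50, SE 0.403; edgeR adjusted p = 0.0415). Without normal glucose 3 the log2 change was 2.13 (edgeR adjusted p = 9.84e-04). It was 1.35 and 1.19 without normal glucose 1 and 2, and 1.54, 1.48 and 1.48 without high glucose 1, 2 and 3, and the edgeR adjusted p of 0.127, 0.0695, 0.102, 0.114 and 0.112 then missed the threshold. Its locus also holds the microRNA gene MIR6787, whose reads were not counted apart. The last 1603 bases overlap CSNK1D, a kinase gene on the other strand, which was at 0.08 on the log2 scale and not called (edgeR adjusted p = 0.660).

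An assembled locus without an annotated transcript lies 2726 bases beyond the end of SLC16A3 on the same strand (chr17:82242224-82242664). It is inside CSNK1D, which runs on the opposite strand, and the table gives it that gene's name. It had 437, 525 and 498 counts in high glucose, against 40, 9 and 44 counts in normal glucose, and it was called higher (log2 change 3.94, SE 0.538; edgeR adjusted p = 0.00571). It stayed called without each of the 6 libraries in turn. Its normal glucose 3 library, at 0.529 CPM, lay beside normal glucose 1, at 0.462 CPM, and far below the 4.90 to 6.05 CPM of high glucose.

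SLC16A1 (chr1:112911847-112956196, minus strand), the widely expressed carrier MCT1, had 169, 168 and 173 CPM in high glucose and 166, 196 and 143 CPM in normal glucose. The high glucose libraries lay within the range of the normal glucose libraries. The log2 change was 0.01, with a 95% interval of -0.29 to 0.32 (edgeR adjusted p = 0.951), or 0.817-fold to 1.25-fold. SLC16A1-AS1, the antisense RNA gene that starts 219 bases away and runs in the other direction, had 8.04, 7.12 and 9.13 CPM in high glucose, against 15.8, 15.2 and 10.5 CPM in normal glucose. It fell by 0.77 on the log2 scale (edgeR adjusted p = 0.0397), and it was called in 1 of the 6 omissions of a library, that of normal glucose 3. AKR7A2P1, a pseudogene inside the SLC16A1 locus on the other strand, was at 0.229 to 0.482 CPM and not called (edgeR adjusted p = 0.590).

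SLC16A7 (chr12:59596029-59789855, plus strand), which encodes MCT2, was expressed at a lower level, with 44.2, 41.1 and 44.4 CPM in high glucose and 44.1, 39.8 and 60.6 CPM in normal glucose. The groups overlapped, with normal glucose 3 the highest. The log2 change was -0.16, with a 95% interval of -0.56 to 0.24 (edgeR adjusted p = 0.566).

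SLC16A8 (chr22:38078134-38084093, minus strand), the carrier MCT3 that marks the choroidal membrane of differentiated retinal pigment epithelium, had 11, 23 and 7 counts in high glucose and 20, 11 and 6 counts in normal glucose. Since 1 fragment appears to have been counted about 4 times in this table, these are a few fragments per library, near the floor of 12 counts per library set for an absent gene. The groups overlapped, and the fitted change, whose 95% interval on the log2 scale was -1.63 to 1.88, is not read as a fold at these counts. A difference was not detectable at this depth. BAIAP2L2, whose locus lies 807 bases upstream on the same strand, was called higher at 0.762, 0.410 and 0.534 CPM in high glucose against 0.0693, 0.221 and 0.108 CPM in normal glucose (edgeR adjusted p = 0.0444), and its call was kept in 1 of the 6 omissions of a library. Those normal glucose values are 6, 19 and 9 counts, near or below the same floor, so the size of the change is uncertain.

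BSG (chr19:571277-583493, plus strand), the immunoglobulin-family chaperone of MCT1, MCT3 and MCT4, was the most abundant of the 7 genes. It had 926, 910 and 669 CPM in high glucose and 994, 683 and 1040 CPM in normal glucose. High glucose 3 and normal glucose 2 were the low libraries, and the groups overlapped. The log2 change was -0.12, with a 95% interval of -0.59 to 0.35 (edgeR adjusted p = 0.722), and it was 0.02 without high glucose 3. AC009005, an RNA gene on the other strand that overlaps the start of BSG by 952 bases, had 1.61, 1.24 and 1.52 CPM in high glucose against 0.589, 0.699 and 0.649 CPM in normal glucose (log2 change 1.17; edgeR adjusted p = 0.0227). It was called in 1 of the 6 omissions of a library.

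**Figure D2:**
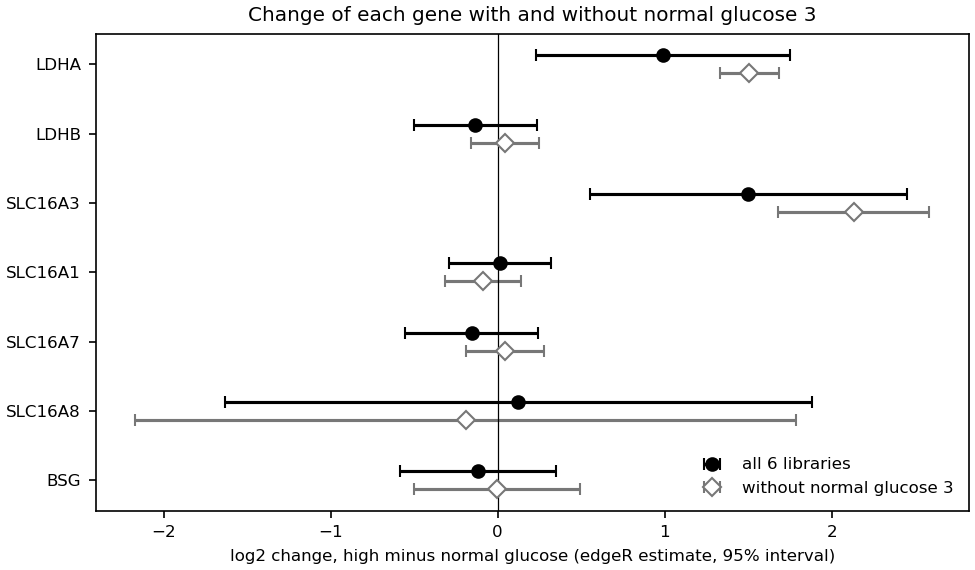
Log2 change, high minus normal glucose (x axis, edgeR estimates), with 95% intervals for all 6 libraries (filled circles) and without normal glucose 3 (open diamonds). LDHA moves to 1.51 and SLC16A3 to 2.13 without that library, while the intervals of the other 5 genes cross 0 both ways.

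Compared per length, the order of the 7 genes by mean FPKM in high glucose was BSG, LDHA, SLC16A3, LDHB, SLC16A1, SLC16A7 and SLC16A8. In normal glucose SLC16A3 came after LDHB and SLC16A1. BSG had 182 ± 32.2 FPKM in high glucose and 191 ± 40.5 FPKM in normal glucose, which is rank 48 and rank 46 among 13786 tested loci with a protein-coding transcript. LDHA had 96.7 ± 3.15 FPKM (rank 153) in high glucose and 47.3 ± 24.4 FPKM (rank 411) in normal glucose, and SLC16A3 had 42.7 ± 1.42 FPKM (rank 501) and 14.7 ± 9.14 FPKM (rank 1912) in the same order. LDHB had 34 ± 2.04 FPKM in high glucose and 36.3 ± 7.28 FPKM in normal glucose. SLC16A1 had 24 ± 0.373 FPKM in high glucose and 23.1 ± 3.72 FPKM in normal glucose, and SLC16A7 had 2.60 ± 0.121 and 2.81 ± 0.628 FPKM (SD, n = 3 per group throughout). In high glucose no 2 neighbours in this order overlapped over their libraries. In normal glucose LDHA overlapped with LDHB, and SLC16A1 with SLC16A3.

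Among the 4 transporters, SLC16A3 held 60.4%, 62.4% and 61.8% of the summed FPKM in high glucose libraries 1, 2 and 3, against 31%, 20.5% and 51.9% in normal glucose. SLC16A1 held 35.6%, 33.9% and 34.4% in high glucose and 61.8%, 73.1% and 40.7% in normal glucose. The carrier with the most RNA was thus SLC16A3 in all 3 high glucose libraries and in normal glucose 3, and SLC16A1 in normal glucose 1 and 2. The log2 ratio of SLC16A3 to SLC16A1 averaged 0.83 ± 0.0585 in high glucose and -0.83 ± 1.10 in normal glucose (SD, n = 3 each), without overlap. The summed FPKM was 68, 69.6 and 70.6 in high glucose and 36.9, 36.9 and 48.1 in normal glucose.

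**Figure D3:**
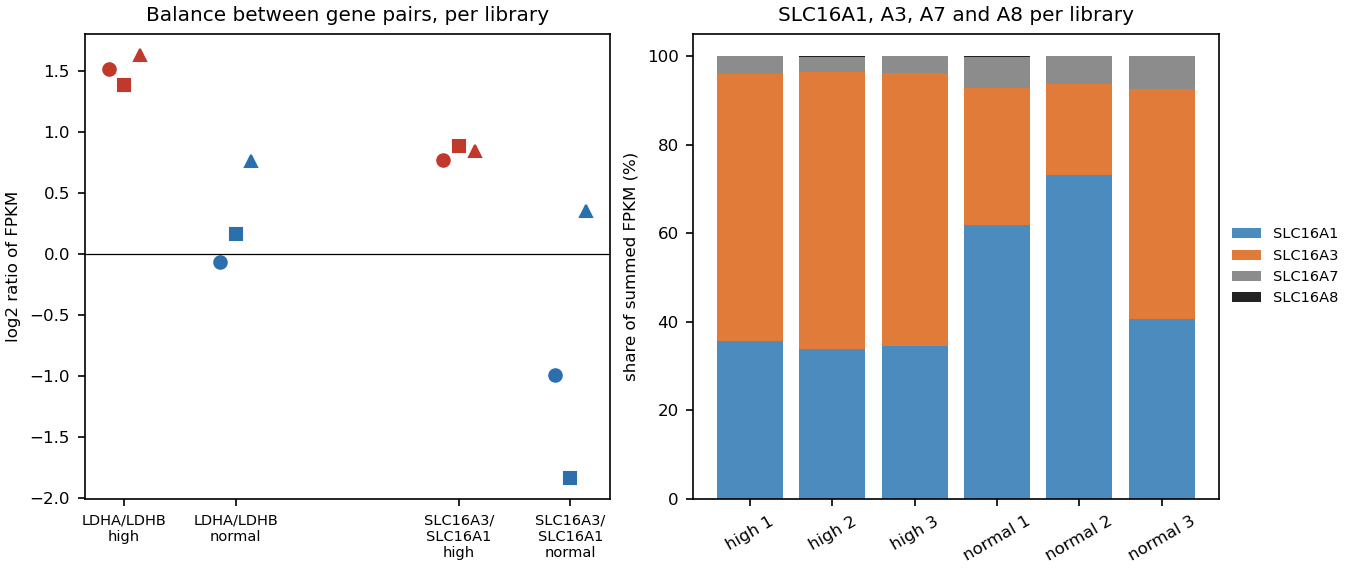
Left, log2 ratio of FPKM for LDHA over LDHB and SLC16A3 over SLC16A1 in each library (circle, square and triangle for libraries 1, 2 and 3 of high glucose in red and of normal glucose in blue). Right, share of the summed FPKM of 4 transporters in each library, in percent: SLC16A3 holds 60.4% to 62.4% in high glucose and 20.5% to 51.9% in normal glucose.

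Several other members of the SLC16 family, most of them carriers of substrates other than lactate, rose in high glucose. Of 10 such genes, all tested, 5 were called higher and none lower, with a median log2 change of 1.11 against -0.0042 over all tested loci. The share called was 19.6% of all tested loci (9.75% higher) and 25.5% of coding ones (13.1% higher). SLC16A6 (MCT7), which exports ketone bodies from the liver in zebrafish, had 10.9, 12.7 and 14.6 CPM in high glucose, against 1.26, 1.69 and 1.25 CPM in normal glucose (log2 change 3.18; edgeR adjusted p = 0.00131). SLC16A9 (MCT9), a carnitine carrier, had 6.81, 7.94 and 6.57 CPM against 0.462, 0.256 and 0.144 CPM in normal glucose (log2 change 4.62; edgeR adjusted p = 0.00241). Those normal glucose values are 40, 22 and 12 counts, the last at the floor of 12 counts for an absent gene. The size of this change is therefore uncertain. SLC16A14, whose substrate is not established, had 5.01, 5.50 and 3.92 CPM in high glucose against 0.474, 0.291 and 0.637 CPM in normal glucose (log2 change 3.36; edgeR adjusted p = 0.00274). It too was low in normal glucose, at 41, 25 and 53 counts. None of these 3 genes showed normal glucose 3 near the high glucose level, in contrast to LDHA and SLC16A3. SLC16A4 and SLC16A13 were the other 2 called, by 0.93 and 1.28 on the log2 scale. SLC16A4, SLC16A6, SLC16A9 and SLC16A14 were called without each of the 6 libraries in turn, and SLC16A13 was called without normal glucose 3 alone.

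**Figure D4:**
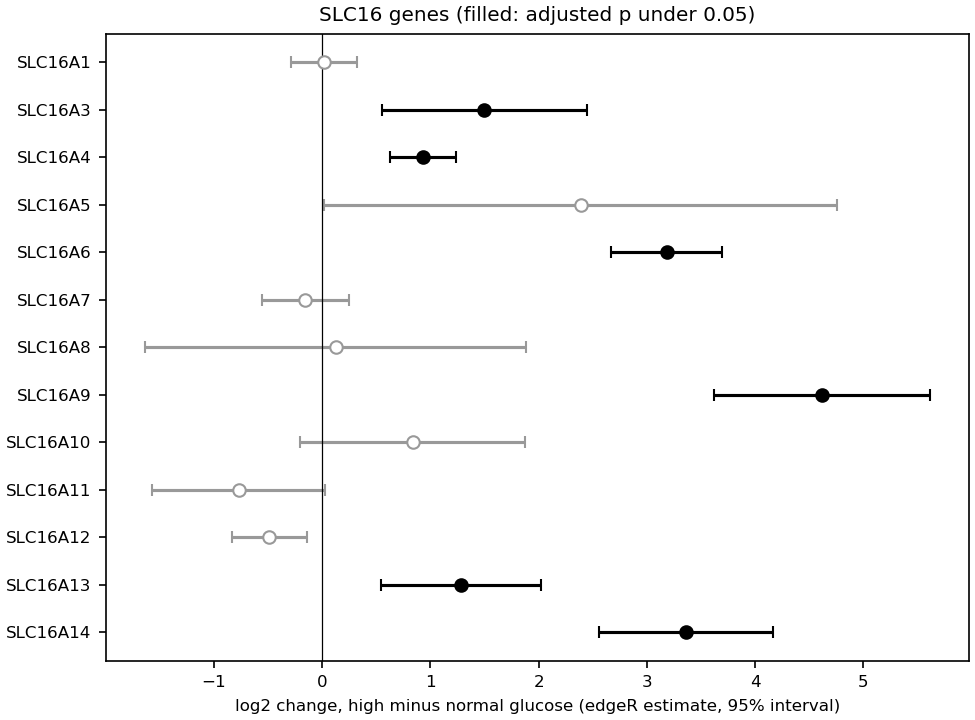
Log2 change, high minus normal glucose (x axis, edgeR estimates with 95% intervals), for SLC16 genes, with filled points for an adjusted p under 0.05. SLC16A9, SLC16A14 and SLC16A6 have the largest of the called changes, at 4.62, 3.36 and 3.18, and SLC16A3 is at 1.50. The size for SLC16A9 rests on 40, 22 and 12 counts in normal glucose, close to the floor of 12 counts.

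None of LDHC, LDHD, LDHAL6A, LDHAL6B and UEVLD was called at an edgeR adjusted p under 0.05. UEVLD, which carries an LDH-like domain and was the most abundant of them, had 34.3 ± 0.379 CPM in high glucose and 40 ± 3.49 CPM in normal glucose (SD, n = 3 each), and passed the threshold, as lower, in the fit that omits normal glucose 3. Among 5 other genes of lactate uptake and sensing, EMB and NPTN, alternative chaperones of the carriers, were tested and not called (log2 changes of -0.27 and 0.10). SLC5A8 and SLC5A12, sodium-coupled lactate importers, were at or near 0 counts, and HCAR1, the lactate receptor, was at 0 in all 6 libraries.

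Of 17 genes of pyruvate use, 1 was called higher and 2 lower, which is no more than the 19.6% called among all tested loci. Their median log2 change was 0.21 (0.13 to 0.27 with a library omitted). PDK1, a kinase that switches off pyruvate dehydrogenase, rose by 0.50 on the log2 scale, with 61.9 ± 4.12 CPM in high glucose and 43.9 ± 4.70 CPM in normal glucose (SD, n = 3 each; edgeR adjusted p = 0.0316), and was called in 1 of the 6 omissions of a library. PC, which carboxylates pyruvate to oxaloacetate, fell to 4.88 ± 0.908 CPM in high glucose, against 21.9 ± 8.37 CPM in normal glucose (SD, n = 3 each; log2 change -2.17; edgeR adjusted p = 0.00687), and was called in all 6. GPT2, a mitochondrial alanine transaminase, fell by 0.86 on the log2 scale (edgeR adjusted p = 0.0363) and was called in 2 of the 6. PKM, the pyruvate kinase that feeds LDH, had 2425 ± 602 CPM in high glucose and 1400 ± 309 CPM in normal glucose without being called (SD, n = 3 each; edgeR adjusted p = 0.0571), and it was called without high glucose 1. MPC1 and MPC2, the mitochondrial pyruvate carrier, had log2 changes of -0.10 and 0.56 and were not called. Without normal glucose 3, 4 of the 17 genes were called higher and 2 lower, in a fit that called 28.7% of its loci.

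The next list held 10 genes, those of the shuttles that oxidise cytosolic NADH in competition with LDH and the mitochondrial transhydrogenase NNT. GPD1 was called higher and GOT1 lower, which is near the 19.6% called among all tested loci and 25.5% among coding ones. The median log2 change of the 10 genes was -0.04 (-0.10 to 0.07 with a library omitted). GPD1, a glycerol phosphate dehydrogenase, had 3.25 ± 0.688 CPM in high glucose against 1.22 ± 0.0718 CPM in normal glucose (SD, n = 3 each; edgeR adjusted p = 0.0109) and was called in 4 of the 6 omissions. GOT1, the cytosolic aspartate transaminase, had 37.7 ± 4.73 CPM in high glucose against 78.7 ± 20.7 CPM in normal glucose (SD, n = 3 each; edgeR adjusted p = 0.0175) and was called in 1 of the 6.

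Genes that handle the protons exported with lactate included some of the larger called changes. Of 9 tested pH regulators, 3 were called higher and none lower, with a median log2 change of 0.09 that was -0.13 without high glucose 1. The share called was 19.6% of all tested loci (9.75% higher) and 25.5% of coding ones (13.1% higher). CA9, a membrane carbonic anhydrase, rose to 72.9 ± 1.02 CPM in high glucose, against 5.41 ± 0.579 CPM in normal glucose (SD, n = 3 each; log2 change 3.75; edgeR adjusted p = 1.55e-04). CA12, a related membrane enzyme, rose to 16.9 ± 1.42 CPM in high glucose, against 3.67 ± 0.538 CPM in normal glucose (SD, n = 3 each; log2 change 2.20; edgeR adjusted p = 0.00164). SLC4A4, the sodium bicarbonate cotransporter of the retinal pigment epithelium, rose by 1.11 on the log2 scale (edgeR adjusted p = 0.00627). CA9, CA12 and SLC4A4 were called without each of the 6 libraries in turn.

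Of 11 tested partners of basigin, 2 were called higher and 2 lower, with a median log2 change of 0.08 (-0.05 to 0.37 with a library omitted). The share called in either direction was 19.6% of all tested loci and 25.5% of coding ones. MMP14, a membrane metalloprotease, rose to 783 ± 45.8 CPM in high glucose, against 437 ± 49.5 CPM in normal glucose (SD, n = 3 each; edgeR adjusted p = 0.00618). CD44, the hyaluronan receptor, rose by 0.82 on the log2 scale (edgeR adjusted p = 0.00746). SLC3A2, the heavy chain of amino acid exchangers, fell by 2.06 (edgeR adjusted p = 0.0219). PPIB, a cyclophilin of the endoplasmic reticulum, fell by 0.77 (edgeR adjusted p = 0.0324). CD44 and MMP14 were called in all 6 omissions of a library, SLC3A2 in 2 and PPIB in 1. PPIA, the extracellular basigin ligand cyclophilin A, had 994 ± 87.2 CPM in high glucose and 940 ± 294 CPM in normal glucose (SD, n = 3 each; edgeR adjusted p = 0.826), and was called higher without normal glucose 3 (log2 change 0.37).

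Of 10 transcriptional regulators linked to these genes, 3 were called lower and none higher, with a median log2 change of -0.52 (-0.84 to -0.14 with a library omitted). The share called was 19.6% of all tested loci (9.86% lower) and 25.5% of coding ones (12.4% lower). Without normal glucose 3, 4 of the regulators were called lower and 1 higher, in a fit that called 28.7% of its loci. EPAS1, the hypoxia-inducible factor HIF-2 alpha, fell to 280 ± 7.27 CPM in high glucose, against 563 ± 54.3 CPM in normal glucose (SD, n = 3 each; edgeR adjusted p = 0.00307). PPARGC1A, a coactivator of mitochondrial genes, fell by 1.71 on the log2 scale (edgeR adjusted p = 0.00617), and ESRRA, a nuclear receptor that works with it, by 0.53 (edgeR adjusted p = 0.0285). ESRRA was called without normal glucose 3 and in no other omission, while EPAS1 and PPARGC1A were called in all 6. HIF1A, in a locus with SNAPC1, was at 1366 ± 54.7 CPM in high glucose and 1369 ± 355 CPM in normal glucose (SD, n = 3 each; edgeR adjusted p = 0.994), and was called higher without normal glucose 3 (log2 change 0.23). MYC was at 43.6 ± 2.72 CPM in high glucose and 62.3 ± 39.2 CPM in normal glucose (SD, n = 3 each; edgeR adjusted p = 0.402).

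**Figure D5:**
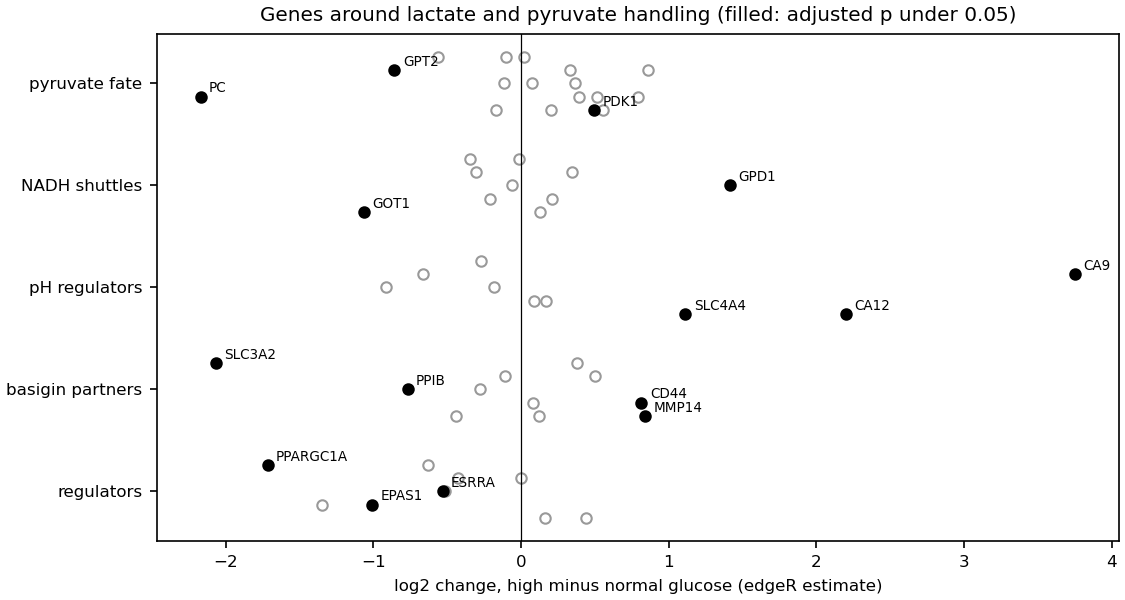
Log2 change, high minus normal glucose (x axis, edgeR estimates), of the tested genes of 5 lists around lactate and pyruvate handling (rows, points spread vertically for legibility), with filled and named points for an adjusted p under 0.05. CA9 lies farthest to the right at 3.75 and PC farthest to the left at -2.17.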

How the data were processed

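RNA from each sample was isolated with Trizol and enriched on oligo-dT beads before paired-end sequencing, per the labels' protocols. The authors deposited 1 table that gives every locus a raw count and an FPKM in each library. The column names in the file headers call these measures count and FPKM. The deposited counts are whole numbers with library totals that differ. FPKM by its usual definition divides by length and depth, and the headers do not state how it was computed. Where the count is 0 the lowest deposited FPKM is 0.0001. Bowtie 0.12.2 and a mouse build, mm8, are listed in the submitters' processing notes, whereas the table carries human gene names. Coordinates are printed as deposited, and the GRCh38.p14 start sites in RefSeq lay within 129 bases of the upstream ends of the 6 member loci matched. The counting tool and its use of strand are not known, so overlapping genes on opposite strands may share reads. Counts of 4 (9555 values) outnumber counts of 3 (4210) and 5 (2659). The floor for an absent gene was therefore 12 counts per library, which stands for 3 fragments at 4 counts each and covers counting error only.

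The 37 mitochondrial loci are listed at 0 and were left out. Loci were filtered with filterByExpr and tested with edgeR 4.0.16 (TMM, glmQLFit, glmQLFTest, 2-sided, group as the only term, Benjamini-Hochberg over 25025 loci) in R 4.3.3. A locus with an adjusted p under 0.05 is referred to as called. The 95% intervals use the estimate, its SE (estimate over the square root of F) and the degrees of freedom of the fit. Alternatives used other scalings and filters, DESeq2 1.42.0, limma 3.58.1 (voom with group weights, and log2 FPKM with a pseudocount of 1 or 0.1), counts divided by 4, a replicate block and the omission of each library.

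The 7 genes, the lists and the tests were chosen with earlier results of these data known, and no list was tested as a set. From each list, up to 3 called genes with the smallest adjusted p were named, or the most abundant if none was called. Genes and loci named beyond this rule (the locus beyond SLC16A3, BAIAP2L2, EMB, PPIB, PPIA, PKM, MPC1, MPC2, HIF1A, MYC, SLC16A4, SLC16A13, and those named as near 0) were chosen after their values were seen. The same holds for MERTK, MITF, OTX2, PMEL, RLBP1 and SERPINF1 among the cell markers. Some genes that the rule or the lists take in are not reported here. Library numbers shared by the groups did not pair them: deviations from group means of same-numbered libraries correlated at -0.017, -0.00076 and -0.0094.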

Additional observations from a re-analysis of the deposited data

How the results depend on the processing

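SLC16A3 stayed above 0 in all 18 alternatives and LDHA in all 18, but their calls moved. SLC16A3 was 1.64 and not called with limma on log2(FPKM + 1) without a filter (adjusted p = 0.0618), and 1.19 to 2.13 over single omitted libraries. LDHA was called with DESeq2 (0.98), voom with group weights (1.11) and limma on log2(FPKM + 0.1) (1.15), and was 0.77 to 1.51 over omitted libraries. The number of the 7 genes called was accordingly 2 with DESeq2, voom and limma at a pseudocount of 0.1, 0 with limma without a filter, and 0 to 2 over omitted libraries. The loci called also moved. Of 25025 tested, DESeq2 called 7050, voom 5146 and limma at a pseudocount of 0.1 called 5016, against 4906 in the main fit. Limma without a filter called 3144 of 39140, and the fits with an omission called 1421 to 7615. The fits with an omission rest on 5 libraries, and the cause of the lost calls was not tested. Uncalled genes changed sign in some omissions: without normal glucose 3, SLC16A1 was -0.088, SLC16A7 0.045, SLC16A8 -0.19 and LDHB 0.047, without high glucose 2 SLC16A8 was -0.46, and without high glucose 3 BSG was 0.024. Over all omissions the ranges were -0.09 to 0.14 for SLC16A1, -0.27 to 0.04 for SLC16A7, -0.46 to 0.64 for SLC16A8, -0.28 to 0.02 for BSG and -0.24 to 0.05 for LDHB. The replicate block gave 1.69 for SLC16A3 (edgeR adjusted p = 0.0419) and 1.11 for LDHA (0.0586), changed no call among the 7 genes, and lowered the loci called to 1312 higher and 1233 lower, against 2439 and 2467. Omitted libraries gave 730 to 3932 loci called higher and 691 to 3683 lower, and 12 to 33 of the 79 genes of the 8 accompanying lists called, against 20. Limma without a filter called 1919 loci higher and 1225 lower, so that 61% of its calls were higher against 49.7%. SLC16A8 gave no value under the filter at 1 CPM or with counts divided by 4. Depth limits SLC16A8 alone among the 7 genes.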

Other observations

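The genes whose levels over the 6 libraries were most like those of each gene were taken as the 3 loci, of 19448 with 1 name and an annotated transcript, at the smallest Euclidean distance of centred log2 CPM. This describes 6 libraries in 2 groups and carries no test. For LDHA they were SOX9, MCUB and CAPN5, at distances of 0.171, 0.177 and 0.204. SOX9, a transcription factor, had 153, 163 and 165 CPM in high glucose against 59.1, 63.3 and 135 CPM in normal glucose. For SLC16A3 they were MARVELD1, SPNS2 and ARSI, at 0.149, 0.218 and 0.229. MARVELD1 had 137, 141 and 141 CPM in high glucose against 38.1, 26.3 and 76.9 CPM in normal glucose. All 6 of these genes had normal glucose 3 between the other normal glucose libraries and high glucose, which follows from their choice by likeness to LDHA or SLC16A3. For LDHB the nearest were PDHA1, the catalytic alpha subunit of pyruvate dehydrogenase, DDIT4 and ARAP3 (0.126, 0.128 and 0.143), for SLC16A1 they were SLC22A23, GTF3C4 and ARHGEF6 (0.061, 0.072 and 0.09), and for SLC16A7 they included RBBP4 and ACTR1B (0.076 and 0.121). For BSG they were BDNF-AS, AL499602 and REEP4 (0.182, 0.194 and 0.199). For SLC16A8, at a few fragments per library, they were PPP1R9A-AS1, AL445309 and AC005696 (0.277, 0.463 and 0.501).

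A second row of the table carries the LDHA symbol but no annotated transcript. It lies 1291 bases beyond the LDHA locus (chr11:18409509-18409853) and had 12, 52 and 8 counts in high glucose and 17, 17 and 66 counts in normal glucose (edgeR adjusted p = 0.723). Its counts were highest in high glucose 2 and normal glucose 3, and the groups overlapped.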
